A study of Mus musculus with 16 samples.

Results

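The genes described are the 78 mouse genes that encode mitochondrial ribosomal proteins and carry the family's systematic symbol, Mrpl for the large subunit (49 genes) or Mrps for the small subunit (29 genes) followed by a number. They were taken by name from a table of 53714 genes, and 5 pseudogenes whose symbols contain -ps were left out. The data are gene counts from polyadenylated RNA of 16 liver samples of male mice aged 9 weeks, in 4 groups of 4. All samples carry the strain label C57BL/6 Slc25a47tm1c(EUCOMM)Hmgu, so the conditional tm1c allele of Slc25a47, which encodes a mitochondrial carrier found mainly in liver, is shared by the controls. The control groups are labelled Slc25a47hep+/+ and the knockout groups Slc25a47hep-/-, the superscript hep standing for the hepatocyte, and the promoter that drove the recombinase is not given in the sources used here. Within each genotype 4 samples came from chow-fed mice and 4 from mice fasted overnight. The 4 groups are called fed control, fed knockout, fasted control and fasted knockout here.

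The mitochondrial ribosome translates the few proteins that mitochondrial DNA encodes, all of them core subunits of the respiratory chain and of the ATP synthase. Its RNAs are mitochondrial transcripts, but every one of its proteins is encoded in the nucleus, made in the cytosol and imported, so the large and small subunits depend on many scattered nuclear genes being expressed in proportion. Some of these proteins have a counterpart in the bacterial ribosome, and others were added in the evolution of mitochondria. The 78 genes lie on 17 chromosomes, and liver, with its many mitochondria, is a tissue in which most of them are readily detected.

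Gene counts summed to between 19.6 M and 27.3 M in a library. Slc25a47 was at 636 ± 154 CPM (counts-per-million of gene reads, TMM-scaled; SD, n = 4) in the fed controls and 126 ± 32.2 in the fed knockouts, and at 949 ± 129 in the fasted controls and 261 ± 77.1 in the fasted knockouts. The highest knockout library, at 330, lay below the lowest control library, at 460. All 9 listed hepatocyte markers were detected in every library. In fed knockouts 4 of them were lower and in fasted knockouts 5, with 0 higher (44.4% and 55.6%, where 30.9% and 28.3% of all genes passed). Between the fasted genotypes 2 of the 9 had a positive log2 fold change. Their summed level was 133789 ± 2166 CPM in fed controls, 109541 ± 16581 in fed knockouts, 126392 ± 23282 in fasted controls and 127198 ± 7809 in fasted knockouts. Markers of pancreatic acinar cells summed to 1776 CPM in fasted control replicate 2 and 490 CPM in fasted control replicate 4, against 4.74 to 77.8 CPM in the other 14. The edgeR fit was repeated without these 2 libraries. Summed levels, ratios, spreads and counts of groups without overlap use all 16 libraries and were not repeated. The share of all counted reads that aligned to several places and were assigned to no gene moved with genotype, at 41.5 to 45.8% in the fed controls, 40.4 to 45.7% in the fasted controls, 32.0 to 39.3% in the fed knockouts and 32.2 to 34.8% in the fasted knockouts. Markers of hepatic stellate cells moved with genotype as well, with a summed level of 285 to 341 CPM in the fed controls, 421.4 to 465.3 in the fed knockouts, 285 to 349 in the fasted controls and 365 to 443 in the fasted knockouts, and none of the 8 markers was at 0. Erythroid markers, 4 genes, summed to 223 to 247 CPM in the fed controls, 125 to 202 in the fed knockouts, 153 to 183 in the fasted controls and 109 to 205 in the fasted knockouts. Of 8 macrophage markers, 1 passed as higher in each genotype comparison (12.5%, against 30.9% and 28.3% of all genes), and all 8 had a positive log2 fold change in both. The part of these differences in the results below was not tested. In whole liver, fewer cells of a type and less RNA per cell cannot be told apart.

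Nuclear respiratory factor 1 (NRF1) and ETS-family factors are textbook regulators of nuclear genes for mitochondrial proteins. A start annotated by RefSeq on GRCm38.p6 was at hand for 69 of the 78 genes. In the 250 bases before the start, on either strand, the NRF1 core GCGCATGC was found in 8 of the 69 (11.6%), against 4.82% of all tested genes with a window, and the ETS core CCGGAAG in 18 (26.1%), against 14.97%. The YY1 motif AAGATGGCG was found in 2 (2.90%, against 1.41%), the SP1 box GGGCGG in 33 (47.8%, against 61.3%) and the E-box CACGTG in 5 (7.25%, against 9.78%). Median GC content of the windows was 58.4%, against 59.3% for all tested genes with a window. Stretches that end at or shortly before the start are shown for 7 genes, chosen because they carry these motifs or because the gene is among those described most fully below. Capitals mark the NRF1, ETS and SP1 letters on either strand, and each stretch is written in the direction of its gene. Mrpl22 (chr11:58171511-58171660, plus strand) and Mrpl9 (chr3:94443168-94443317, plus strand) show the NRF1 core, which in Mrpl9 lies in a palindrome and therefore matches on both strands. Mrps22 (chr9:98601680-98601829, minus strand), Mrpl43 (chr19:45006443-45006557, minus strand) and Mrps27 (chr13:99344706-99344785, plus strand) show the ETS core, read on the opposite strand in Mrps27. Mrps17 (chr5:129715347-129715496, plus strand) and Mrpl17 (chr7:105811100-105811249, minus strand) show the SP1 box in its reverse reading. Mrpl17 also has an NRF1 core, an ETS core and a further SP1 box, 11, 237 and 241 bases before the start, outside the stretch shown. An SP1 box of Mrpl43, 144 bases before its start, is not shown either.
Mrpl22: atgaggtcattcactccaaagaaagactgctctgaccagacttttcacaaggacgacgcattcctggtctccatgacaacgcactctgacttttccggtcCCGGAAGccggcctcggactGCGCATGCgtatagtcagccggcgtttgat
Mrpl9: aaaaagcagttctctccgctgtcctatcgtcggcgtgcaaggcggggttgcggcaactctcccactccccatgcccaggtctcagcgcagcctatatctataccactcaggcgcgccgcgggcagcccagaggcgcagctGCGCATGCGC
Mrps22: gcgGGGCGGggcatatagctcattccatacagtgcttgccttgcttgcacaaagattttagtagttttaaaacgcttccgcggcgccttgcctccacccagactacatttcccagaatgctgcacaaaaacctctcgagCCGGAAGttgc
Mrpl43: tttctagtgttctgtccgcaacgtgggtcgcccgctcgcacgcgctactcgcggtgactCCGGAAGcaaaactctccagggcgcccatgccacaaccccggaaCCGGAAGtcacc
Mrps27: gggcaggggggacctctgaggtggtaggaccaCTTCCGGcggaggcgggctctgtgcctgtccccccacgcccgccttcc
Mrps17: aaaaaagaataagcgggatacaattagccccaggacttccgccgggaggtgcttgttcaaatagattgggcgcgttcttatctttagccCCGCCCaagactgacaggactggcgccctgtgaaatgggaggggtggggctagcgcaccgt
Mrpl17: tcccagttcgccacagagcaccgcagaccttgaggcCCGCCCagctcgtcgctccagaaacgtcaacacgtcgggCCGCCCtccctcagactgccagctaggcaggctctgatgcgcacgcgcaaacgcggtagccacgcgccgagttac
A match is a description of letters, and no measurement here bears on the binding of a factor. Genes with the same motif did not share 1 direction in the comparisons that follow. Of the 17 tested genes with the ETS core, 3 passed the test as higher and 4 as lower in fasted against fed controls, and 2 as higher and 7 as lower in fasted against fed knockouts. Of the 51 without it, 4 were higher and 9 lower, and 6 higher and 14 lower, and of all genes tested 34.5% and 41.4% passed.

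Of the 78 genes, 77 passed the filter on low counts. Mrpl53 (chr6:83109040-83109939, plus strand) had 0 counts in all 16 libraries, and 88.0% of its exon bases are shared with Gm42688 on the same strand. Mrpl23 and Mrps36 had 311 and 828 counts in all 16 libraries together. Both have annotated pseudogene copies, from which reads may be hard to place, and their values are uncertain. Few reads were assigned to the pseudogenes left out by symbol. Counts were 28 for Mrpl23-ps1, 8 for Mrpl48-ps, 1 for Mrps36-ps2, and 0 for Mrps36-ps1 and Mrps36-ps3. Reads that aligned to several places were assigned to no gene, so these counts do not show how active the copies are.

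Although the proteins are built into the ribosome mostly in single copies, the level of their transcripts differed widely from gene to gene. Per kilobase of transcript the mean over the 16 libraries ran from 1.21 CPM per kb for Mrpl23 to 64.4 CPM per kb for Mrpl30, a ratio of 53.2, with a median of 16.5. The low end rests on the 311 counts of Mrpl23, and the quartiles were closer, at 9.91 and 24.4 CPM per kb, a ratio of 2.46. The order of genes depends on the length used. For Mrpl30 the transcript length was 662 bases, while its annotated exons cover 3226. The highest levels after Mrpl30 were those of Mrpl12 (63.3 CPM per kb), Mrpl42 (60.3) and Mrpl20 (57.8). Mrpl12 is the L7/L12-type stalk protein, which in bacteria is the one ribosomal protein present in several copies. The lowest levels after Mrpl23 were those of Mrps25 (1.29 CPM per kb), Mrpl19 (2.59) and Mrps26 (2.70). The large-subunit median was 19.0 CPM per kb and the small-subunit median 15.5. Within groups the genes were steady, with a median SD between replicates of 0.107 on the log2 scale, against 0.182 for all genes tested and 0.1376 for the 5491 genes in the level range of the middle of the family.

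**Figure D1:**
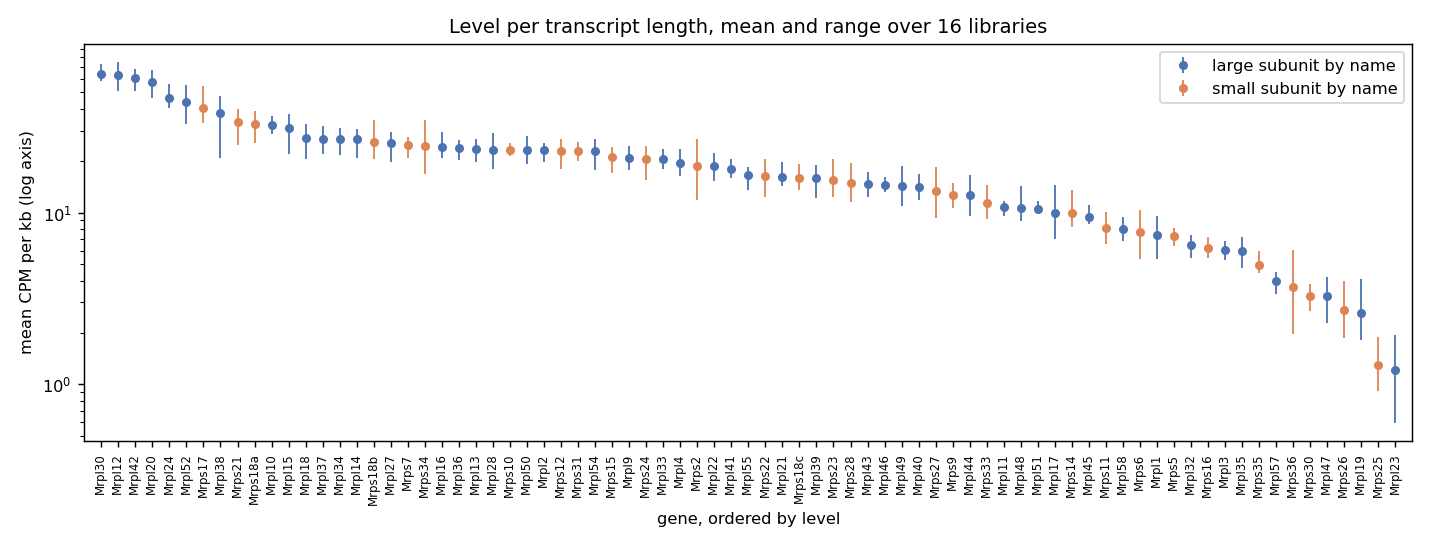
Level of each of the 77 tested genes in CPM per kilobase of transcript on a log axis, as the mean (point) and the range (line) over the 16 libraries, ordered by level and coloured by subunit. The spread between genes, from 1.21 for Mrpl23 to 64.4 for Mrpl30, is far wider than the range of any 1 gene over the libraries.

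The summed level of the family differed little between the groups. It was 1829 ± 23.9 CPM (SD, n = 4) in the fed controls, 1912 ± 34.3 in the fed knockouts, 1797 ± 34.6 in the fasted controls and 1840 ± 71.4 in the fasted knockouts. Fed control libraries ran from 1809 to 1859 and fed knockout libraries from 1862 to 1940, so that these groups just failed to overlap, while the fasted groups overlapped (1755 to 1826 against 1784 to 1941). These values use TMM scaling, which assumes that most genes do not differ between libraries. As a plain share of all gene reads the family was at 0.173% (range 0.170 to 0.176) in the fed controls and 0.211% (0.202 to 0.219) in the fed knockouts, and at 0.165% (0.159 to 0.171) and 0.192% (0.184 to 0.207) in the fasted groups. Scaling by library totals in place of TMM moved the median of all genes from -0.01 to 0.21 on the log2 scale between the fed genotypes and from 0.01 to 0.20 between the fasted ones, so every genotype direction given here is relative to the bulk of genes. The ratio of summed large-subunit to summed small-subunit level was 2.16 ± 0.027 in the fed controls, 2.26 ± 0.055 in the fed knockouts, 2.24 ± 0.070 in the fasted controls and 2.18 ± 0.024 in the fasted knockouts.

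**Figure D2:**
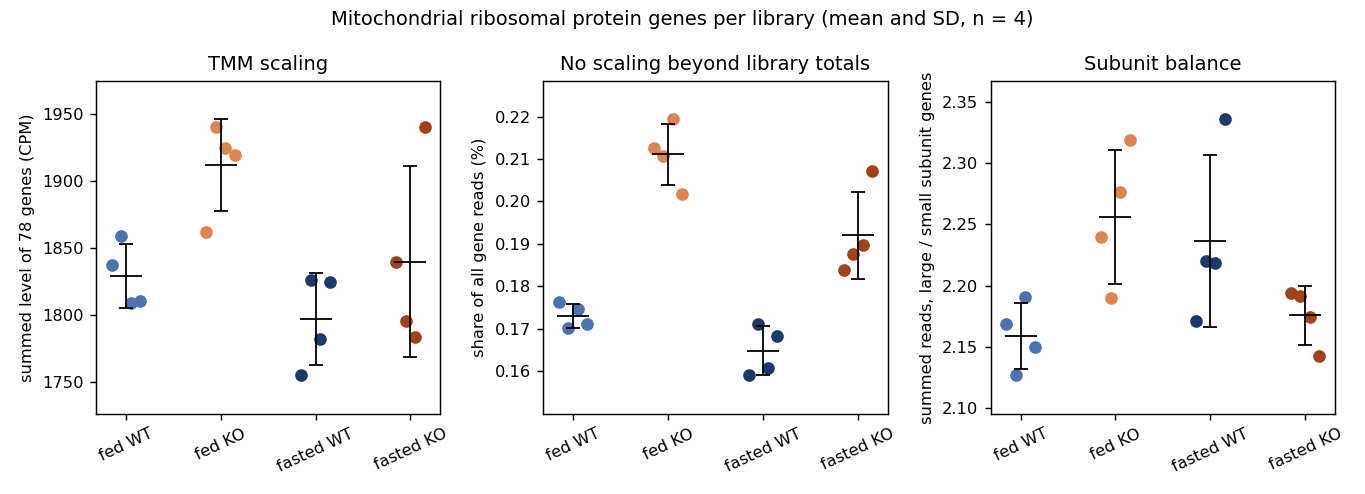
Summed level of the family in each of the 16 libraries in TMM-scaled CPM (left), as a percent of all gene reads (middle), and as the ratio of large-subunit to small-subunit sums (right); points are libraries, bars are group means, and no axis starts at 0. The fed knockouts lie between 1862 and 1940 CPM, above the fed controls at 1809 to 1859, and the genotype gap is wider in the share of gene reads.

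The first comparison asks what loss of Slc25a47 did to these genes in fed mice. In edgeR's quasi-likelihood test with Benjamini-Hochberg adjustment over all 13905 genes, 9 of the 77 were higher in the fed knockouts and 4 were lower, 16.9% of the family, where 30.9% of all genes tested passed (16.9% lower and the rest higher). The median log2 fold change of the family was 0.04 (all genes: -0.01), and its median absolute change was 0.099 (all genes: 0.235). At an unadjusted p under 0.05 there were 22 genes of the 77, against 5782 of all 13905. Groups that did not overlap were found for 11 genes as higher and 6 as lower, 22.1% against 28.4% of all genes.

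Mrpl15 (ENSMUSG00000033845, chr1:4773206-4785739), a large-subunit protein with a bacterial counterpart, rose most clearly. It was at 49.2, 47.4, 41.8 and 47.9 CPM in the fed controls and at 61.7, 62.4, 64.3 and 68.1 CPM in the fed knockouts. The lowest knockout stood well above the highest control, a difference of 0.46 ± 0.07 (log2 fold change ± SE, 1.38-fold, edgeR adjusted p = 0.000114). Mrps17 (ENSMUSG00000034211, chr5:129715497-129722556), a small-subunit protein that binds the 12S RNA, was at 30.4, 31.2, 28.9 and 32.0 CPM in the fed controls and 38.2, 36.3, 40.3 and 38.8 CPM in the fed knockouts. Again the groups lay apart, by 0.33 ± 0.07 (1.25-fold, edgeR adjusted p = 0.00242). Mrpl37, which has no bacterial counterpart, was at 41.5, 38.0, 38.0 and 39.0 CPM against 43.4, 47.6, 47.0 and 45.5 CPM, a log2 difference of 0.23 ± 0.06 (edgeR adjusted p = 0.0118).

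The other 6 higher genes rose by 0.18 to 0.27 on the log2 scale. They were Mrpl52 (0.27 ± 0.08), Mrpl58 (0.26 ± 0.08), Mrps28 (0.26 ± 0.10), Mrpl55 (0.24 ± 0.08), Mrpl16 (0.19 ± 0.07) and Mrpl12 (0.18 ± 0.06), with edgeR adjusted p from 0.0199 to 0.0440. Mrpl58 is a peptidyl-tRNA hydrolase that frees stalled mitochondrial ribosomes and is at the same time a structural subunit. For Mrpl12 the fed controls were at 67.5, 67.0, 73.5 and 71.1 CPM and the fed knockouts at 75.1, 84.0, 78.4 and 77.6 CPM, 2 groups close to each other without overlap. Nearest to the threshold were Mrpl16 inside it (adjusted p = 0.0440) and Mrps23 outside it (0.22 ± 0.08, adjusted p = 0.0538).

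Of the 4 lower genes, Mrps36 had the largest difference, at 3.85, 3.04, 2.78 and 3.43 CPM in the fed controls and 2.28, 2.60, 2.07 and 1.79 CPM in the fed knockouts. All knockouts were below all controls, by -0.57 ± 0.17 (log2, edgeR adjusted p = 0.0153). The Mrps36 protein was first assigned to the small subunit and is now known as a subunit of the 2-oxoglutarate dehydrogenase complex. Mrpl27, a central-protuberance protein close to the peptidyl transferase centre, was at 20.8, 21.8, 20.6 and 20.9 CPM against 16.3, 16.7, 18.2 and 18.4 CPM, again without overlap (log2 difference -0.27 ± 0.09, edgeR adjusted p = 0.0222). Mrps31 was at 33.3, 39.2, 33.6 and 36.8 CPM against 30.4, 31.5, 30.4 and 31.0 CPM. Its knockout values were tightly grouped below the controls, with a log2 difference of -0.21 ± 0.06 (edgeR adjusted p = 0.0122) that became 0.01 when libraries were scaled by their totals. Mrpl49 was lower by -0.24 ± 0.08 (edgeR adjusted p = 0.0395).

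The split between higher and lower rested on the scaling. With library totals 44 genes were higher and 0 lower, a set that held all 9 higher calls and none of the 4 lower ones, and 26 of the 77 genes changed sign. Under that scaling 57.1% of the family passed, against 41.7% of all genes, so the family lay below the share of all genes with TMM and above it with library totals. The calls were also sensitive to single libraries: the 9 higher calls became 3 without fed knockout replicate 3 or without fed control replicate 4 and 5 without fed control replicate 2, the 4 lower calls became 2 without fed knockout replicate 1, and only Mrpl15, Mrpl37, Mrps17 and Mrps31 passed with each of the 16 libraries left out in turn.

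In fasted mice 13 genes were higher and 7 lower in the knockouts, 26.0% of the 77, close to the 28.3% of all genes (13.8% higher, 14.5% lower). The median log2 fold change of the family was 0.00 (all genes: 0.01). An unadjusted p under 0.05 was found for 28 of the 77, against 5447 of all 13905 genes. Groups without overlap were seen for 14 genes as higher and 7 as lower, 27.3% against 29.5% of all genes. The fold changes of this comparison come from the fasted libraries, while the spread is estimated over all 16.

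Mrps17 rose again. It was at 31.3, 32.4, 29.3 and 29.4 CPM in the fasted controls and 41.4, 39.1, 37.9 and 47.6 CPM in the fasted knockouts, which lay wholly above (0.44 ± 0.07, 1.36-fold, edgeR adjusted p = 0.000198). Mrpl19 (ENSMUSG00000030045, chr6:81957851-81965958), a large-subunit protein with a bacterial counterpart and one of the least abundant transcripts of the family per length, was at 10.98, 11.4, 12.6 and 10.7 CPM in the fasted controls and 15.2, 15.3, 19.2 and 20.5 CPM in the fasted knockouts. No value was shared between the groups, and the difference was 0.61 ± 0.12 (1.53-fold, edgeR adjusted p = 0.000605). Mrps6 (0.38 ± 0.12), Mrps26 (0.38 ± 0.11), Mrps2 (0.31 ± 0.11), Mrps23 (0.29 ± 0.08) and Mrpl57 (0.29 ± 0.09) were higher as well, with edgeR adjusted p from 0.0126 to 0.0482. Mrpl50, Mrpl1, Mrpl9, Mrps18a and Mrpl37 rose by 0.19 to 0.24. Mrpl23 had the largest log2 difference, 0.96 ± 0.26 (edgeR adjusted p = 0.00824), at 0.413 to 0.982 CPM in the fasted controls and 0.965 to 1.34 CPM in the fasted knockouts, which overlapped through 1 control, and the difference was 0.69 with an adjusted p of 0.118 without the 2 fasted controls that carry pancreatic transcripts.

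Among the 7 lower genes Mrpl18, a central-protuberance protein that contacts 5S RNA in other ribosomes, was at 36.2, 33.8, 27.8 and 35.0 CPM in the fasted controls and 27.3, 26.2, 25.7 and 24.96 CPM in the fasted knockouts. The lowest control was just above the highest knockout (log2 difference -0.35 ± 0.09, edgeR adjusted p = 0.00751). Mrpl27 and Mrpl40, also of the central protuberance, were lower by -0.28 ± 0.09 and -0.24 ± 0.08 (edgeR adjusted p = 0.0220 and 0.0344). Mrps36 was at 2.76, 2.85, 2.14 and 2.01 CPM against 1.47, 1.25, 1.25 and 1.67 CPM, all knockouts below all controls (-0.78 ± 0.18, edgeR adjusted p = 0.00329). The remaining 3 were Mrpl49 (-0.27 ± 0.08), Mrpl32 (-0.24 ± 0.08) and Mrpl42 (-0.21 ± 0.06). Nearest to the threshold were Mrps2 inside it (adjusted p = 0.0482) and Mrpl15 outside it (adjusted p = 0.0591), the latter at 60.8, 52.8, 61.4 and 56.9 CPM in the fasted controls and 68.9, 62.1, 61.9 and 71.3 CPM in the fasted knockouts.

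Here too library totals gave another split, 35 higher and 1 lower, the lower one being Mrps36, and 25 of the 77 genes changed sign, with 46.8% of the family called against 37.4% of all genes. The 13 higher calls became 7 without fasted knockout replicate 1, fasted knockout replicate 4 or fasted control replicate 1, and the 7 lower calls became 2 without fasted knockout replicate 3, 4 without fasted knockout replicate 2 and 3 without the 2 libraries with pancreatic transcripts. Without those 2 libraries Mrpl1, Mrpl9, Mrpl23, Mrps2, Mrps23 and Mrps26 among the higher genes and Mrpl18 (-0.29, adjusted p = 0.0761), Mrpl32, Mrpl42 and Mrpl49 among the lower ones did not pass. Mrpl19, Mrpl23, Mrpl50, Mrps17, Mrpl18 and Mrps36 passed with each library left out in turn, although Mrpl18 did not with library totals (-0.16, adjusted p = 0.181).

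Only 5 genes passed in the same direction in both genotype comparisons, 6.49% of the family against 16.1% of all genes. Mrpl37 and Mrps17 were higher in both, 22.2% of the 9 higher genes in fed mice and 15.4% of the 13 in fasted mice. Mrpl27, Mrpl49 and Mrps36 were lower in both, 3 of the 4 and 42.9% of the 7. No gene passed in opposite directions. Values for Mrpl49 were 23.0, 24.3, 25.7 and 28.5 CPM in the fed controls, 20.9, 22.3, 21.1 and 21.8 in the fed knockouts, 21.5, 23.7, 23.4 and 21.4 in the fasted controls and 16.7, 21.7, 18.4 and 17.9 in the fasted knockouts, of which 1 reached into the range of its controls. For Mrpl27 the fasted controls were at 21.3, 21.4, 22.1 and 19.1 CPM and the fasted knockouts at 20.1, 18.02, 14.9 and 16.3 CPM, so these groups overlapped through 1 knockout.

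**Figure D3:**
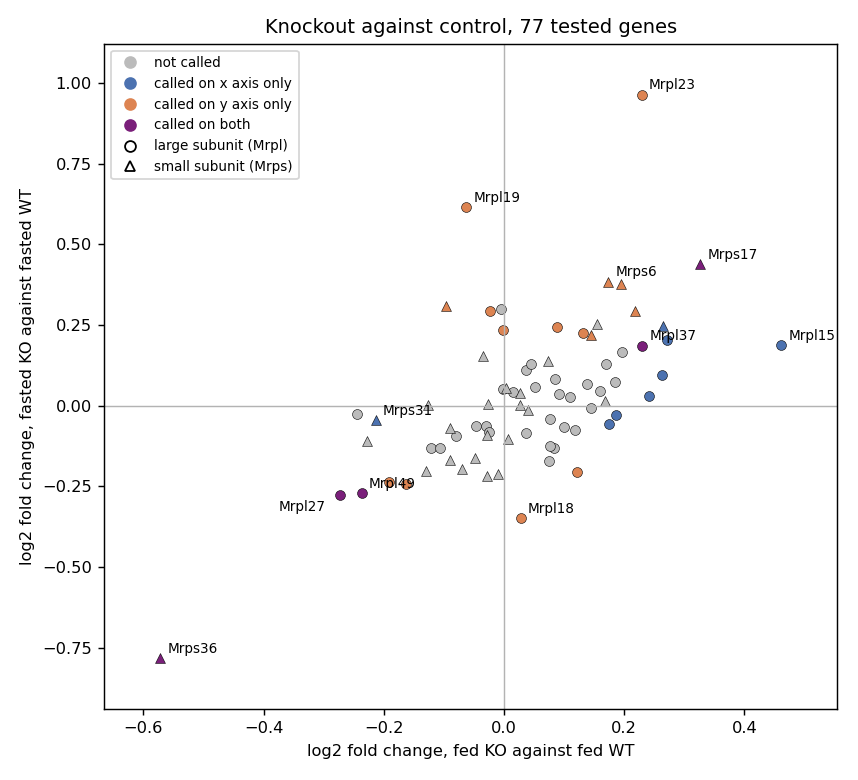
Log2 fold change of knockout over control in fed mice (horizontal axis) and in fasted mice (vertical axis) for the 77 genes under TMM scaling, coloured by the comparison in which they passed the test. Mrps17 and Mrpl37 lie to the upper right and Mrps36, Mrpl27 and Mrpl49 to the lower left, while Mrpl15 stands out along the fed axis and Mrpl19 along the fasted axis; scaling by library totals moves the medians of the family to 0.26 (fed) and 0.19 (fasted).

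Overnight fasting was compared within each genotype. In control mice 9 genes were higher and 15 lower after fasting, 31.2% of the 77 against 34.5% of all genes (16.2% higher, 18.3% lower). In knockout mice 10 were higher and 23 lower, 42.9% against 41.4% of all genes (21.1% higher, 20.3% lower). The family's medians were -0.07 in controls and -0.10 in knockouts, where those of all genes were -0.02 and -0.00. At an unadjusted p under 0.05 there were 35 and 47 genes of the 77, against 6058 and 6882 of all 13905. Groups did not overlap for 9 genes as higher and 19 as lower in controls (36.4% against 32.8% of all genes) and for 11 and 24 in knockouts (45.5% against 38.2%). The fed and fasted controls used here are also the controls of the genotype comparisons.

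Mrpl17 (ENSMUSG00000030879, chr7:105803206-105811099), a protein near the polypeptide exit tunnel, had the clearest rise. The fed controls were at 30.3, 30.7, 33.2 and 29.1 CPM and the fasted controls at 43.3, 53.3, 50.6 and 51.0 CPM. The fed knockouts were at 31.9, 33.6, 30.3 and 30.6 CPM and the fasted knockouts at 51.5, 51.6, 50.9 and 59.9 CPM. In both genotypes every fasted library stood far above every fed one, by 0.69 ± 0.08 in controls (1.61-fold, edgeR adjusted p = 1.23e-06) and 0.76 ± 0.08 in knockouts (1.69-fold, edgeR adjusted p = 3.87e-07).

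Mrps34 (ENSMUSG00000038880, chr17:24895116-24897502), a small-subunit protein without a bacterial counterpart, rose from 18.1, 19.8, 19.8 and 18.6 CPM to 26.8, 31.8, 26.1 and 29.2 CPM in controls, a log2 change of 0.57 ± 0.10 (edgeR adjusted p = 0.000166). In knockouts it rose from 18.5, 19.8, 16.1 and 15.4 CPM to 24.6, 24.5, 21.1 and 28.6 CPM, a change of 0.50 ± 0.10 (edgeR adjusted p = 0.000497). Fed and fasted libraries lay apart in both genotypes. Mrpl12, the stalk protein, rose to 91.7, 95.04, 91.1 and 99.0 CPM in the fasted controls and 96.7, 88.7, 84.4 and 92.3 CPM in the fasted knockouts, by 0.43 ± 0.06 and 0.20 ± 0.06 over the fed levels given above (edgeR adjusted p = 2.51e-05 and 0.0141). Mrps26 (0.33 ± 0.12 and 0.51 ± 0.11) and Mrps9 (0.23 ± 0.08 and 0.28 ± 0.08) were the other genes that rose in both genotypes. Mrpl15, Mrpl43, Mrpl55 and Mrpl24 passed as higher in controls, at 0.32, 0.30, 0.24 and 0.20. Mrpl19, Mrps2, Mrpl47, Mrps23 and Mrps31 passed as higher in knockouts, at 0.65, 0.62, 0.43, 0.27 and 0.19. For Mrps2 the fed knockouts were spread over 33.5, 41.4, 29.1 and 24.6 CPM and the fasted knockouts were at 45.8, 46.5, 49.6 and 55.5 CPM, all above them.

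Mrps27 (ENSMUSG00000041632, chr13:99344786-99415562), a pentatricopeptide repeat protein of the small subunit, fell furthest in both genotypes over all libraries. It went from 32.3, 33.1, 27.8 and 29.99 CPM to 19.7, 18.8, 21.3 and 17.1 CPM in controls, to 0.625 of the fed level (-0.68 ± 0.08, edgeR adjusted p = 4.64e-06). In knockouts it went from 28.9, 34.0, 30.6 and 27.2 CPM to 17.8, 18.8, 18.4 and 17.4 CPM, to 0.599 of the fed level (-0.74 ± 0.08, edgeR adjusted p = 1.66e-06). No fasted library came near a fed one in either genotype.

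Mrpl1, the protein of the mobile L1 stalk through which spent tRNAs leave, fell from 31.0, 29.2, 28.3 and 30.3 CPM to 18.5, 20.3, 21.2 and 18.3 CPM in controls (-0.60 ± 0.07, edgeR adjusted p = 3.76e-06). In knockouts it fell from 29.2, 28.8, 28.0 and 32.7 CPM to 22.4, 22.4, 25 and 22.3 CPM (-0.36 ± 0.07, edgeR adjusted p = 0.000529). All fasted values were below all fed ones, and the fasted knockouts were above the fasted controls, the genotype difference named earlier. Mrpl39, near the exit tunnel, was nearly constant in the fed controls at 40.8, 39.95, 40.5 and 40.8 CPM and lower after fasting at 28.0, 28.8, 33.5 and 32.1 CPM (-0.40 ± 0.06, edgeR adjusted p = 7.98e-05). Its knockout values were 40.1, 41.2, 43.3 and 43.5 CPM fed and 30.4, 32.3, 32.3 and 32.5 CPM fasted (-0.40 ± 0.06, edgeR adjusted p = 7.78e-05), again fully apart.

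Mrps25 was at 11.4, 9.79, 8.90 and 8.48 CPM in the fed controls and 7.85, 6.29, 6.02 and 6.46 CPM in the fasted controls (-0.54 ± 0.11, edgeR adjusted p = 0.000972). It was at 8.81, 8.80, 9.63 and 8.97 CPM in the fed knockouts and 5.87, 5.59, 5.80 and 6.41 CPM in the fasted knockouts (-0.61 ± 0.11, edgeR adjusted p = 0.000233). The fed and fasted groups did not meet. Mrps22, a small-subunit protein mutated in human mitochondrial disease, fell by -0.43 ± 0.09 in controls and -0.36 ± 0.09 in knockouts (edgeR adjusted p = 0.00105 and 0.00293). Mrpl28, Mrps28, Mrps11, Mrps15 and Mrps18a completed the genes that fell in both genotypes, by -0.22 to -0.35. Mrps6 (-0.49 ± 0.12), Mrps14, Mrps16 and Mrpl50 passed as lower in controls and not in knockouts. A further 12 genes, among them Mrpl18 (-0.49 ± 0.09), Mrps21 (-0.37 ± 0.10), Mrpl22 (-0.36 ± 0.09), Mrps12 (-0.33 ± 0.08), Mrpl42 (-0.31 ± 0.06) and Mrpl16 (-0.30 ± 0.07), passed as lower in knockouts and not in controls. Mrpl39, Mrps22, Mrps25 and Mrps27 have no bacterial counterpart, Mrps12 is the decoding-centre protein of the small subunit, and the Mrps18a protein is found in the large subunit despite its name.

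Mrpl38, which sits in the central protuberance, was singled out after its values were seen, because the fasted controls disagreed. The fed controls were at 63.6, 60.5, 62.1 and 62.6 CPM and the fasted controls at 29.8, 51.7, 29.4 and 57.5 CPM. The 2 high fasted libraries, replicates 2 and 4, are those with pancreatic transcripts. Mrpl38 fell by -0.56 ± 0.17 in controls (edgeR adjusted p = 0.0168), and by -1.07 ± 0.08 (edgeR adjusted p = 2.03e-07) without those 2 libraries. Without fasted control replicate 1 the value was -0.43, and in a fit to the 8 control libraries alone the adjusted p was 0.104. In knockouts, where the libraries were close together at 66.7, 64.5, 67.5 and 65.3 CPM fed and 42.5, 43.2, 42.2 and 50.3 CPM fasted, the change was -0.57 ± 0.17 (edgeR adjusted p = 0.0131). That SE uses the spread over all groups, the fasted controls included. In a fit to the 8 knockout libraries alone the change was -0.56 ± 0.07 (edgeR adjusted p = 0.000100).

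In all, 16 genes passed in the same direction in both genotypes, 20.8% of the 77 against 23.7% of all genes. The 5 higher ones were 55.6% of those higher in controls and 5 of the 10 higher in knockouts, and the 11 lower ones were 73.3% and 47.8% of the lower lists. No gene passed in opposite directions. With library totals the 15 lower calls in controls and the 23 in knockouts all passed, while 5 of the 9 and 6 of the 10 higher calls did. The 9 higher calls in controls became 5 without fed control replicate 4. Without the 2 fasted controls with pancreatic transcripts Mrpl24, Mrpl43, Mrpl55 and Mrps26 among the higher genes in controls, and Mrpl50, Mrps14, Mrps15 and Mrps16 among the lower ones, did not pass, with adjusted p from 0.0576 to 0.192. With each library left out in turn, 5 higher and 10 lower calls in controls and 7 higher and 17 lower calls in knockouts held throughout.

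**Figure D4:**
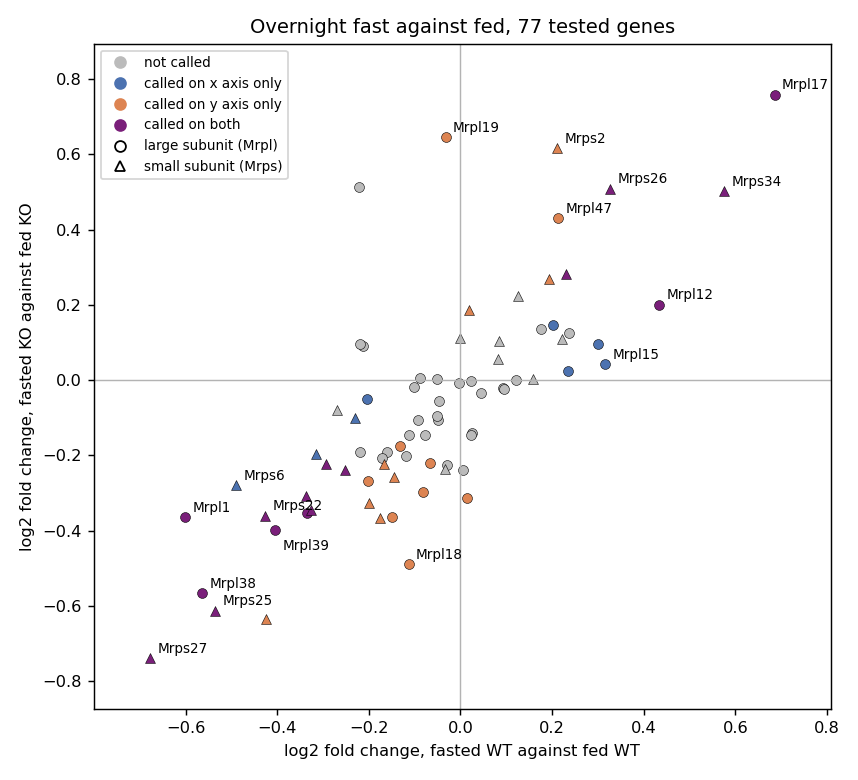
Log2 fold change of fasted over fed mice in controls (horizontal axis) and in knockouts (vertical axis) for the 77 genes under TMM scaling, coloured by where they passed the test. Mrpl17 and Mrps34 lie at the upper right and Mrps27, Mrpl38, Mrps25 and Mrpl1 at the lower left; Mrpl19 and Mrps2 lie above the diagonal, with values near 0 or low in controls.

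Only Mrpl19 passed in the test of whether the response to fasting differed between genotypes. That is 1.30% of the 77 against 1.70% of all genes (1.07% with a higher and 0.633% with a lower response in knockouts). An unadjusted p under 0.05 was found for 9 of the 77, against 2371 of all 13905 genes. Mrpl19 was at 11.9, 13.0, 10.4 and 11.6 CPM in the fed controls and 12.1, 11.9, 11.6 and 9.07 CPM in the fed knockouts, 2 groups that overlapped. Among the fasted mice the knockouts were higher, as given above. The fasting response was -0.03 in controls (edgeR adjusted p = 0.863) and 0.65 ± 0.11 in knockouts (edgeR adjusted p = 0.000214), a difference of 0.68 ± 0.16 (edgeR adjusted p = 0.0413). This call was lost in 10 of the 16 fits that left out a library, and also with library totals (adjusted p = 0.0804), upper quartile factors (0.0561) and DESeq2 size factors (0.0508), and without the 2 fasted controls with pancreatic transcripts (0.63, adjusted p = 0.125). A difference between the fasting responses was not called for any other gene of the family, including those that passed in 1 genotype and not in the other.

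**Figure D5:**
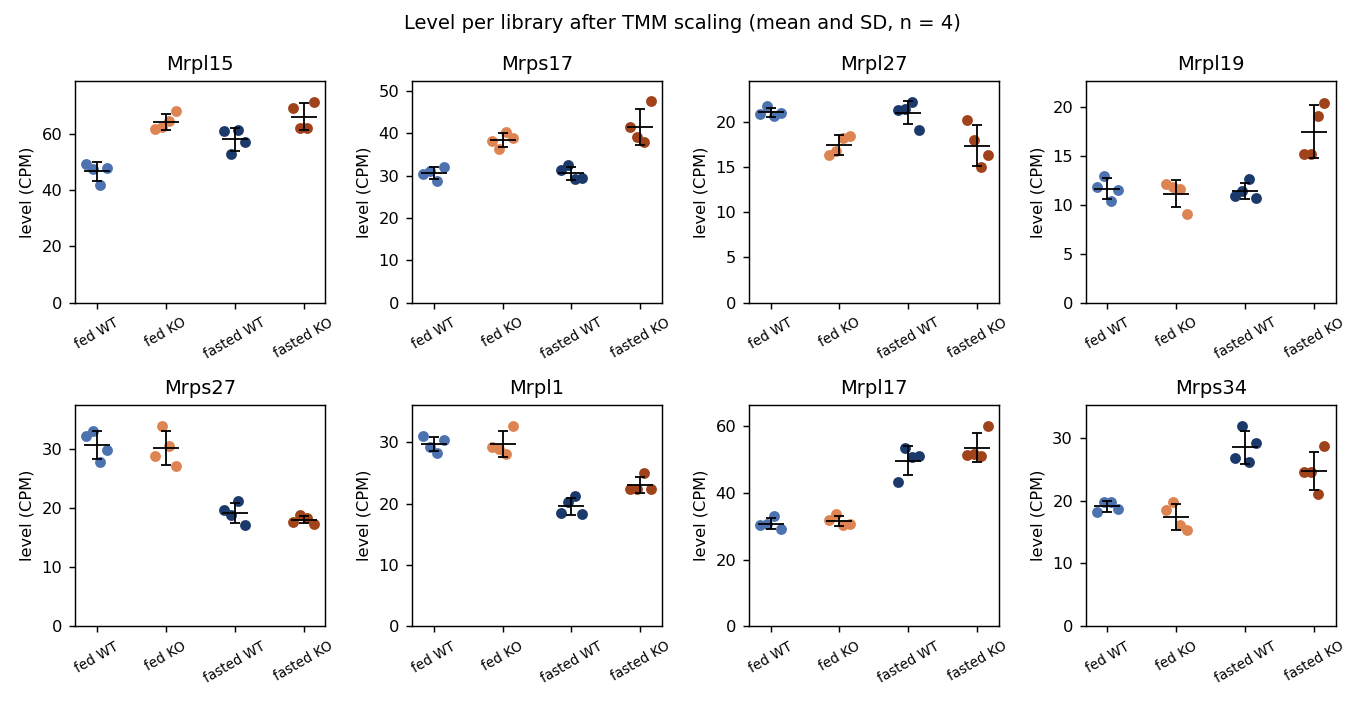
Level in CPM (axes from 0) of 8 genes in each of the 16 libraries; points are libraries and bars are group means over 4. Mrpl15 and Mrps17 are higher in the fed knockouts, Mrpl27 is lower, Mrpl19 is raised in the fasted knockouts, Mrpl17 and Mrps34 are higher and Mrps27 and Mrpl1 lower after fasting in both genotypes.

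Grouped by subunit as the symbols name it, which counts Mrps36 and Mrps18a with the small subunit, large-subunit genes gave 7 rises and 2 falls of 48 between the fed genotypes and 7 and 6 between the fasted ones (18.8% and 27.1%, where 30.9% and 28.3% of all genes passed). Small-subunit genes gave 2 and 2 of 29, and 6 and 1 (13.8% and 24.1%), with Mrps36 as 1 of the 2 fed falls and the 1 fasted fall and Mrps18a among the 6 fasted rises. Fasting gave 6 higher and 5 lower large-subunit genes in controls and 4 and 11 in knockouts (22.9% and 31.2%, against 34.5% and 41.4% of all genes), with medians of -0.05 and -0.08. For the small subunit it gave 3 higher and 10 lower in controls and 6 and 12 in knockouts (44.8% and 62.1%), with medians of -0.17 and -0.20. Mrps18a was among the lower ones in both genotypes and Mrps36 among those in knockouts. The counts describe the lists, and no test compared the subunits.

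Grouped by place in the ribosome, the stalk genes Mrpl10, Mrpl11 and Mrpl12 moved through Mrpl12 alone, and Mrpl10 and Mrpl11 passed nowhere. Of the 8 genes for proteins around the exit tunnel, 0 passed in the fed genotype comparison and 1, Mrpl23, in the fasted one. Fasting gave 2 higher and 1 lower there in controls (Mrpl17, Mrpl24 and Mrpl39) and 2 higher and 2 lower in knockouts (Mrpl17, Mrpl47, Mrpl22 and Mrpl39). Mrpl45, which holds the ribosome at the inner membrane, passed in none of the comparisons. Of the 7 central-protuberance genes, Mrpl55 was higher and Mrpl27 lower in fed knockouts, and 3 were lower in the fasted one (Mrpl18, Mrpl27 and Mrpl40). Of the 46 genes with a bacterial counterpart, 6 were higher and 1 lower in fed knockouts and 7 and 3 in fasted ones, and of the 31 tested without one, 3 and 3, and 6 and 4. These are 15.2% and 21.7%, and 19.4% and 32.3%, beside 30.9% and 28.3% of all genes, and the lists by place are too short for such a share. In all, 50 of the 77 genes passed in at least 1 comparison and 27 in none, among them Mrpl2, Mrpl3, Mrpl4, Mrpl13, Mrpl14, Mrpl20, Mrps5 and Mrps10. No such count was made over all genes, of which 28.3% to 41.4% passed in each comparison of 2 groups.

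Many of these genes share a start region with a neighbour transcribed the other way. A divergent start within 1000 bp was found for 32 of the 77 (41.6%), against 1856 of 12699 protein-coding genes tested (14.6%). For 28 of the 32 the neighbour was tested too. Between the fed genotypes 0 of these 28 pairs passed together in the same direction and 1 in opposite directions. Between the fasted genotypes the counts were 2 and 0, after fasting in controls 2 and 0, and in knockouts 3 and 1, and in most pairs neither gene passed or only 1 did. Examples of both kinds were picked after their values were seen. Mrps27 and Ptcd2, which start 81 bp apart and both encode pentatricopeptide repeat proteins, fell together after fasting, Ptcd2 by -0.22 in controls and -0.31 in knockouts (edgeR adjusted p = 0.0247 and 0.00217). Mrps34 and Eme2, 29 bp apart, rose together, Eme2 by 1.27 and 1.46 (edgeR adjusted p = 1.26e-05 and 3.19e-06). Mrpl32 and the proteasome subunit gene Psma2, 75 bp apart, were both lower in fasted knockouts, Psma2 by -0.42 (edgeR adjusted p = 3.43e-05). In other pairs the genes differed. Mrpl49 was lower in fed knockouts while Fau, 59 bp away and part of the cytosolic ribosome, was higher by 0.33 (edgeR adjusted p = 0.00273). Mrpl18 was lower in fasted knockouts while the chaperonin gene Tcp1, 16 bp away, was at 0.22 (edgeR adjusted p = 0.0666). Mrpl43 was at -0.13 in the fasted genotype comparison, and Twnk, the mitochondrial DNA helicase gene 116 bp away, was higher by 0.67 (edgeR adjusted p = 8.42e-05). Twnk covers 33.4% of the Mrpl43 exon bases and Tcp1 10.1% of those of Mrpl18, on the opposite strand. Reads of these pairs may not have been told apart.

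Exon bases are shared with another annotated gene for 33 of the 78 genes, 28 with a gene on the opposite strand. Whether the counting used strand is not given in the sources used here, so reads of such pairs may not have been told apart, and their part in the results was not tested. Among the genes described above, Mrps25 shares 69.8% of its exon bases with Nr2c2, Mrps34 63.4% with Mapk8ip3 and Mrpl19 36.0% with Gcfc2. Mrps34 also shares 37.0% with Nme3 on the same strand, a gene with 0 counts. In fasted against fed controls Nr2c2 was at -0.09 (edgeR adjusted p = 0.513) and Mapk8ip3 at -0.19 (adjusted p = 0.0951), against -0.54 for Mrps25 and 0.57 for Mrps34. Gcfc2 was at 0.36 between the fasted genotypes (edgeR adjusted p = 0.0991), against 0.61 for Mrpl19. Mrps6 shares 10.4% of its exon bases with Slc5a3 on the same strand, which was at -1.17 in fasted against fed controls. The share of Mrps6 exon bases in Gm49711, also on the same strand, is 19.9%.

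Genes that build and use the ribosome were counted from lists of known factors. Of 27 assembly factors, 2 were higher and 3 lower in fed knockouts (18.5%, against 30.9% of all genes). In fasted knockouts 7 were higher and 1 lower (29.6%, against 28.3%). Mettl15, which methylates the 12S RNA, had the largest change among the 27. It was at 2.69, 2.28, 2.41 and 2.06 CPM in the fed controls and 5.75, 5.47, 7.52 and 5.48 CPM in the fed knockouts, well apart (1.36 ± 0.15, edgeR adjusted p = 2.63e-06), and 0.91 ± 0.15 higher in fasted knockouts (edgeR adjusted p = 0.000140). The GTPase gene Noa1 was higher in both (0.35 and 0.36) and Nsun4, another 12S RNA methyltransferase gene, lower in both (-0.37 and -0.23), the fasted call (adjusted p = 0.0495) being lost in 14 of the 16 fits that left out a library. The fasted Nsun4 call was also lost without the 2 fasted controls with pancreatic transcripts (-0.26, edgeR adjusted p = 0.0864). Mtg2 (-0.26) and Rpusd3 (-0.41) were lower in fed knockouts.

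Of these lists, 3 genes passed with a raised response to fasting in knockouts, 2 of the 27 assembly factors and 1 of 15 translation factors. Of all genes 1.70% passed in this test, and the lists are too short for such a share. Ddx28, a helicase gene of large-subunit assembly, was at 15.1, 15.2, 14.7 and 14.6 CPM in the fasted controls and 23.7, 28.2, 36.9 and 38.9 CPM in the fasted knockouts, a wide spread that lay wholly above (1.10 ± 0.13, edgeR adjusted p = 5.56e-06). Mrm3, which methylates the 16S RNA, was 0.67 ± 0.13 higher in fasted knockouts (edgeR adjusted p = 0.000560), and the initiation factor gene Mtif3 0.54 ± 0.10 higher (edgeR adjusted p = 0.000410). The differences between the fasting responses were 0.88 ± 0.18 for Ddx28, 0.74 ± 0.18 for Mrm3 and 0.68 ± 0.14 for Mtif3 (edgeR adjusted p = 0.0209, 0.0422 and 0.0208). None of the 3 passed without the 2 fasted controls with pancreatic transcripts, where the values were 0.89, 0.63 and 0.63 (adjusted p = 0.0775, 0.134 and 0.0791).

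Of 15 translation factors, 1 was higher and 3 lower in fed knockouts (26.7%, against 30.9% of all genes). In fasted knockouts 3 were higher and 0 lower, a share below the 28.3% of all genes. The list as a whole was thus not called more often than other genes. Tufm, the elongation factor that brings tRNAs to the ribosome, was higher in both, by 0.28 and 0.28 (edgeR adjusted p = 0.0178 and 0.0201). Mtfmt, which formylates the initiator tRNA, was at 7.91, 8.63, 7.92 and 7.55 CPM in the fed controls and 5.18, 5.47, 5.60 and 5.09 CPM in the fed knockouts, a clear gap (-0.58 ± 0.10, edgeR adjusted p = 0.000256). Mtrf1l (-0.47) and Mtif2 (-0.25) were lower in fed knockouts too. Lrpprc, which stabilises mitochondrial messages, was 0.23 higher in fasted knockouts. Without the 2 fasted controls with pancreatic transcripts Lrpprc was at 0.21 (edgeR adjusted p = 0.0761) and did not pass.

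Of 8 genes for transcription and upkeep of mitochondrial DNA, 2 were higher and 2 lower in each genotype comparison. Of all genes 30.9% and 28.3% passed, and 8 genes are too few for such a share. Polrmt, the mitochondrial RNA polymerase, was at 18.3, 18.7, 22.0 and 19.0 CPM in the fed controls and 25.9, 26.2, 27.2 and 24.5 CPM in the fed knockouts, without overlap (0.41 ± 0.08, edgeR adjusted p = 0.00106), and 0.57 ± 0.08 higher in fasted knockouts (edgeR adjusted p = 6.03e-05). Tfam, which packages mitochondrial DNA, was lower in both (-0.23 and -0.30), as was Ssbp1 (-0.26 and -0.27), while Tfb2m was 0.44 higher in fed knockouts. Among 8 regulators of mitochondrial biogenesis, Yy1 was higher in fed knockouts (0.39) and Nrf1 (0.36) and Pprc1 (0.95) in fasted knockouts, where Ppargc1a was lower (-0.87). Without the 2 fasted controls with pancreatic transcripts Ppargc1a was at -0.58 (adjusted p = 0.241) and Nrf1 at 0.33 (adjusted p = 0.0655), and neither passed. Of all calls from these lists in fasted knockouts, 9 of the 14 higher and 2 of the 4 lower ones held in that fit. The fed Tfam call was lost in 7 of the 16 fits that left out a library, and the Ppargc1a call in 5. With library totals, of the lower calls named from these lists, Mtfmt was the 1 of 8 in fed knockouts that passed and 0 of 4 in fasted knockouts did, Tfam then being at -0.01 and -0.11 and Ssbp1 at -0.03 and -0.09.

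Ribosomal proteins of mitochondria that carry other names gave few calls. Of Dap3, Ptcd3, Aurkaip1 and Chchd1, none passed in either genotype comparison. Chchd1 fell after fasting in controls (-0.37, edgeR adjusted p = 0.000757) and in knockouts (-0.44, edgeR adjusted p = 0.000117), and Dap3 in knockouts (-0.34, edgeR adjusted p = 0.00307). The large-subunit protein gene Gadd45gip1 fell by -0.28 and -0.37 (edgeR adjusted p = 0.0364 and 0.00548).

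The cytosolic ribosome is set beside the mitochondrial one because both are counted in the same fit. Of 77 tested genes for cytosolic ribosomal proteins, 61 were higher and 1 lower in fed knockouts and 59 higher and 0 lower in fasted knockouts, with medians of 0.48 and 0.35. These are 80.5% and 76.6%, against 30.9% and 28.3% of all genes. The mitochondrial family had 9 and 4, and 13 and 7, with medians of 0.04 and 0.00. After fasting 0 cytosolic genes were higher and 14 lower in controls (18.2%, against 34.5% of all genes). In knockouts 1 was higher and 41 lower (54.5%, against 41.4%).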

How the data were processed

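Polyadenylated liver RNA was sequenced in 16 libraries, 4 per group, from stranded mRNA libraries per the labels' protocols. The authors deposited 1 table of raw read counts per gene. The submitters' processing notes name cutadapt 1.8, STAR 2.5.3a, HTSeq 0.9.1 and the GRCm38 build. Neither the annotation release nor the counter's strand setting is stated there. The 5 summary lines of the table, such as reads that aligned to several places (32.0 to 45.8% of all counts per library), were left out of library sizes and tests.

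Members were taken by symbol, and the 78 identifiers were all matched to the annotation for positions. Members, gene lists and tests were chosen with earlier results of these data known. Counts were fitted with edgeR 4.0.16 in R 4.3.3 (TMM scaling, its default filter on low counts, which 13905 genes passed, quasi-likelihood test with robust estimation, 1 mean per group over all 16 libraries), for 5 contrasts, with Benjamini-Hochberg adjustment and a threshold of 0.05. CPM values use the TMM library sizes. The standard error is the absolute log2 fold change over the square root of the F statistic. The fit was tested on simulated data. Alternatives were other scalings, no filter, DESeq2 1.42.0, fits to the 8 libraries compared, a replicate block, a threshold of 0.01, and leaving out each library or the 2 fasted controls with pancreatic transcripts. The labels number the samples without saying that each is a separate mouse, so p-values measure the spread between these samples. Depth was 19.6 M to 27.3 M gene reads per library. Promoter sequences are those of RefSeq on GRCm38.p6, trimmed where an annotated exon begins. Figures were drawn with matplotlib 3.10.9.

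Genes were named by a rule: up to 10 called genes with the smallest p per direction and contrast, the 4 highest and 4 lowest levels per length, genes failing the filter, those nearest the threshold, and up to 3 called genes per direction from each list. Others were named as members of a small count or of a place in the ribosome. Mrpl38, the pairs with shared starts or exons and the promoters shown were chosen after their values were seen.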

Additional observations from a re-analysis of the deposited data

Results flagged for a closer look

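In groups of 4 libraries, 1 library stood apart from the other 3 in 9 of 192 groups examined, where chance gives about 1 in 20. In fasted knockout replicate 4 these were Mrpl37 at 43.2 CPM, Mrpl17 at 59.9 CPM and Mrpl24 at 68.5 CPM, each above the other 3. The others were Mrpl1 at 25 CPM in fasted knockout replicate 3 (above), Mrpl39 at 30.4 CPM in fasted knockout replicate 1 (below), Mrpl58 at 20.4 CPM in fed knockout replicate 1 (below), Mrpl19 at 9.07 CPM in fed knockout replicate 4 (below), Mrps14 at 17.2 CPM in fasted control replicate 2 (below) and Mrpl47 at 11.7 CPM in fed control replicate 2 (above).

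The response to fasting differed between genotypes in edgeR's test of the difference for 4 genes, each with a larger response in knockouts: Mrpl19 (0.68 on the log2 scale, adjusted p = 0.0413), Mtif3 (0.68, adjusted p = 0.0208), Mrm3 (0.74, adjusted p = 0.0422) and Ddx28 (0.88, adjusted p = 0.0209).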

How the results depend on the processing

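Scaling mattered most for the genotype comparisons. With library totals the fed genotype comparison gave 44 higher and 0 lower genes (median 0.26) and the fasted one 35 and 1 (median 0.19). Fasting in controls gave 25 calls, 5 of them higher (median -0.11), 32.5% against 34.2% of all genes under this scaling. Fasting in knockouts gave 6 higher and 35 lower (median -0.18), 53.2% against 41.8%. The difference of responses gave 0 higher and 1 lower (median -0.067). Summed levels were 1731, 2111, 1649 and 1921 CPM in the fed controls, fed knockouts, fasted controls and fasted knockouts. Directions turned with library totals for Mrps31 in fed mice (0.0105) and, in fasted mice, for Chchd1 (0.12) and Gadd45gip1 (0.11), and for Gadd45gip1 without the libraries with pancreatic transcripts (0.0268) and, in fed mice, without fed knockout replicate 1 (-0.01), fed knockout replicate 2 (-0.0593) or fed control replicate 2 (-0.0028; up to 0.0734, without fed knockout replicate 3). Upper quartile factors gave 15 higher genes in fed knockouts, 0 higher in the difference of responses and a fed control sum of 1800.3 CPM. Without the filter on low counts 2 genes were higher in fed knockouts, 2 lower in fasted knockouts and 5 higher after fasting in controls. Fits to the 8 libraries compared gave 2 lower genes in fed and 4 in fasted knockouts. At a threshold of 0.01 the counts higher and lower were 2 and 0, 3 and 2, 5 and 8, 6 and 15, and 0 for the difference of responses. Without the libraries with pancreatic transcripts 3 genes were lower in fasted knockouts. DESeq2's Wald test gave 1 lower gene in the difference of responses, and its size factors 0 higher. The ratio of subunit sums was 2.24 in fed controls and 2.33 in fed knockouts without the highest gene of each subunit, and 2.20 in fed controls and 2.21 in fasted knockouts per kilobase. The cause of these changes was not tested.

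Leaving out 1 library at a time gave 3 to 10 higher and 2 to 5 lower genes in fed knockouts, 7 to 14 and 2 to 7 in fasted knockouts, 5 to 10 and 12 to 17 after fasting in controls, 8 to 11 and 18 to 25 in knockouts, and 0 to 2 and 0 to 1 for the difference of responses. The medians ran from 0.03 to 0.05, -0.03 to 0.03, -0.09 to -0.05, -0.13 to -0.07 and -0.0811 to -0.0151. Same-numbered libraries of different groups did not vary together (24 pairs, correlation -0.17 to 0.25, median 0.03, 3 over 0.1), and 6 of 16 libraries correlated best with their own number, so the numbers were not taken to pair samples. With a replicate block the counts were 7 and 4, 12 and 6, 8 and 15, 10 and 25, and 0 and 0. Low counts limit Mrpl23 and Mrps36, with 311 and 828 counts over all libraries.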
